A study of Drosophila melanogaster with 32 samples.

Results

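The strongest A-to-G changes in Hrp48 HyperTRIBE libraries of Drosophila S2 cells lay at 819 positions. These strongly edited sites were chosen by their readout: each was listed in both Hrp48 HyperTRIBE libraries, and its edited reads made up 40% or more of all its reads in that pair of libraries. They were 819 of the 10851 sites that both libraries listed, and 33835 sites were listed in any of the 7 libraries. The other 10032 sites that both libraries listed, with pooled editing under 40%, served as the comparison set and are called the other sites.

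In TRIBE, an RNA-binding protein is fused to the catalytic domain of ADAR, an enzyme that deaminates adenosine in RNA to inosine, which is sequenced as guanosine. Transcripts that the fusion meets in the cell thus carry A-to-G changes, and the percentage of reads with the change at a site is its editing level. HyperTRIBE uses a catalytic domain with the E488Q change, known to make ADAR more active and less choosy about the bases around the adenosine. Hrp48 is an hnRNP protein of the nucleus and cytoplasm with known roles in splicing and in the localisation and translation of mRNA, and FMRP is a regulator of translation.

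All 7 libraries came from poly(A) RNA of S2 cells, an embryonic fly line with features of hemocytes, that were transfected transiently, induced with CuSO4 and sorted by fluorescence. The sites were chosen in Hrp48 HyperTRIBE (Hrp48 fused to the domain with E488Q, 2 libraries). They were then read in Hrp48 TRIBE (Hrp48 fused to the domain without that change, 2 libraries), in the E488Q domain with no RNA-binding protein (deaminase alone, 2 libraries) and in FMRP HyperTRIBE (FMRP fused to the E488Q domain, 1 library). The labels also name an FMRP HyperTRIBE replicate 2, which was not analysed here. Every group was thus a short-term overexpression in the same line, and no label says that the cells lacked their own Hrp48 or FMRP. Whether replicates came from separate cultures is not stated in the labels, so their spread may be technical.

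The libraries listed between 13 and 22803 sites, with 20 or more reads and editing of 10% or more at each, and with median coverage between 27 and 37 reads. A site absent from a list may have been short of reads, short of editing or unedited, and was never counted as 0. By the file headers, set 02 holds replicate 1 of Hrp48 TRIBE and of Hrp48 HyperTRIBE, and set 03 holds their replicate 2. The deaminase-alone and FMRP libraries each belong to a set of their own, and for them a difference between constructs cannot be told apart from one between sets. Of 15 hemocyte-like markers, 9 had a site in both Hrp48 HyperTRIBE libraries: Pvr, vkg, Cg25C, srp, crq, LanA, LanB1, LanB2 and Fer1HCH. Hml, Sr-CI, NimC1, NimC2, Pxn and ush had no such site. Of the 8 neuronal markers elav, n-syb, Syt1, brp, para, Syx1A, cpx and futsch, only Syx1A had one. Since the lists hold edited sites only, a marker without a site may still be expressed.

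Pooled editing at the strongly edited sites ran from 40% to 100% with a median of 47.3%, while the other sites had a median of 18.4%. Of the 819, 302 lay between 40% and 45%, 198 between 45% and 50%, 220 between 50% and 60%, 79 between 60% and 70%, and 20 at 70% or more. The group is therefore dense just above its threshold and thin at the top. In replicate 1 the members had a lowest value of 23.8%, a median of 48.3% and a highest of 100%. In replicate 2 these values were 28.6%, 47.5% and 100%. The libraries gave like levels, with 426 sites higher in replicate 1, 387 higher in replicate 2 and 6 equal.

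The members had about the reads of the other sites, with medians of 35 against 36 reads in replicate 1 and 46 against 47 in replicate 2. Pooled reads per member ran from 40 to 258, with a median of 81. At this depth the threshold is soft. Only 291 members (35.5%) had a Wilson 95% interval of pooled editing that lay wholly at or above 40%, where the interval covers counting error alone. Both libraries separately reached 40% at 562 members (68.6%). Just inside the threshold, all at 40%, were sites in geminin, drk, Iap2, CrebA and Csk. Just outside were CG2789 at 39.9% and Hers, CG34330, Droj2 and daw at 39.8%. Reads with a base other than adenosine or guanosine made up 0.0532% and 0.0554% of the reads at the members.

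**Figure D1:**
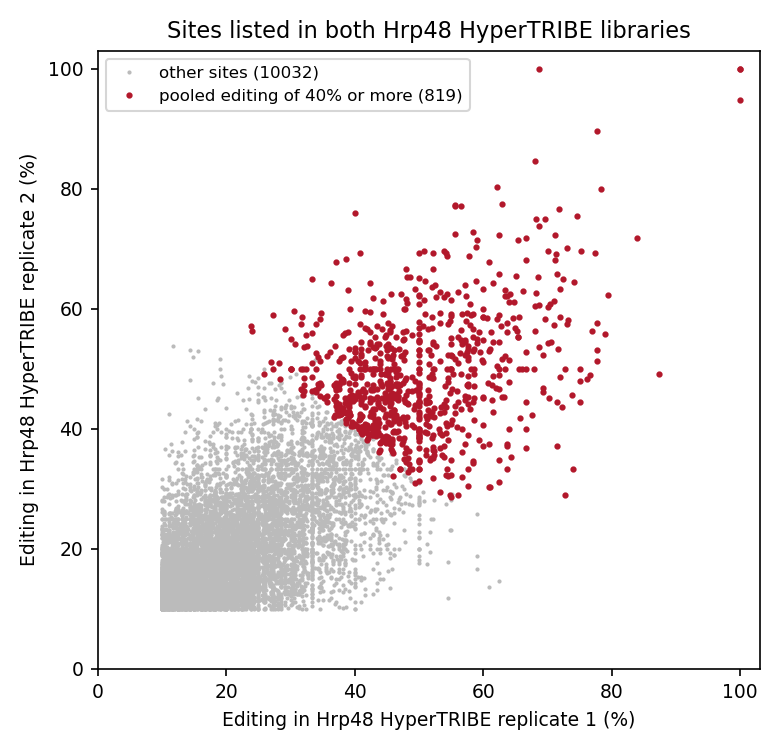
Editing (%) in Hrp48 HyperTRIBE replicate 1 (x axis) and replicate 2 (y axis) at every site listed in both, with the 819 strongly edited sites in red and the other 10032 in grey. The red points spread on both sides of the diagonal, the diagonal lower edge is the rule itself, and 3 points lie above 90% in both libraries.

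The absolute difference between the libraries had a median of 7.95 percentage points over the members and exceeded 20 points at 88 of them. The 5 sites with the widest gap lay in Abp1, an actin-binding protein gene (72.7% and 28.9%), Mbs, a subunit of myosin phosphatase (73.9% and 33.3%), Hsp23, a small heat shock protein (87.3% and 49.1%), B4 (40% and 76%) and Mst85C (71.4% and 37.1%). Among these the Hsp23 site had the most reads, 71 and 106, and the other 4 had between 21 and 38 reads in a library. Wilson intervals of the replicates failed to overlap at 7 members (0.855%), beside 0.378% of all 10851 sites. Across the 819 members the correlation between the libraries was 0.32 (Pearson's r) and 0.20 (Spearman's rho), over a range that the rule had narrowed. These are values across sites, which share their libraries and are not independent.

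Sites chosen at 40% or more in a single library were read in its partner, which that choice did not use. Of 1059 such sites in replicate 1, 993 (93.8%, Wilson 95% interval 92.1 to 95.1%) were listed in replicate 2, and 52.9% of the remaining 18647 sites were. Their median editing was 47.5% where they were chosen and 42.3% where they were only read. In the reverse direction 876 of 1303 sites (67.2%, 64.6 to 69.7%) were listed in replicate 1, beside 46.4% of the rest, and the medians were 47.5% and 44.7%. In both directions strong editing was found again well above the medians of the remaining sites, 17.4% and 18.8%, and 562 sites reached 40% in both.

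The 10 members with the highest pooled editing fell into a group edited alike in every library that listed them and a group that stood high with Hrp48 HyperTRIBE. CR40677 (XHet, 184929) was at 100% in both Hrp48 HyperTRIBE libraries, both Hrp48 TRIBE libraries and FMRP HyperTRIBE, and at 96.6% and 95.2% with the deaminase alone. CR41602 (XHet, 191112) was at 100% in every library but Hrp48 TRIBE replicate 2, where it was at 99.1%. The intronic site shared by CG13900 and CR45184 (3L, 827873) was at 100% and 94.9% with Hrp48 HyperTRIBE, at 97.1% in Hrp48 TRIBE replicate 2, and at 100% in deaminase-alone replicate 2 and FMRP HyperTRIBE. At these 3 sites the level did not follow the construct, and whether the change is made by the deaminase was not tested. The first pair is annotated as ribosomal RNA pseudogenes, whose reads cannot be separated in these files from those of near-identical copies.

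Below them came ImpL3, encoding lactate dehydrogenase (3L, 6252709), with 77.8% on 63 reads and 89.7% on 68 reads. Its pooled level was 84.0% (Wilson 95% interval 76.7 to 89.3%), and none of the other 5 libraries listed it. MFS3, a membrane transporter gene of the major facilitator family (2L, 1147209), was at 68.8% and 100% on 32 and 22 reads, and likewise appeared in no other library. Hop, the co-chaperone that links Hsp70 and Hsp90 (2L, 297369), was at 78.4% and 80%, at 37.1% in Hrp48 TRIBE replicate 2 and at 44.4% with FMRP HyperTRIBE. In cold (2L, 575235) the levels were 84% and 71.9%, and the site was in no other list. Trc8, a ubiquitin ligase gene (3R, 25325254), stood at 68% and 84.6% with Hrp48 HyperTRIBE and at 36.4% with FMRP HyperTRIBE. Ald, encoding aldolase (3R, 22080705), was at 74.6% and 75.4%, at 29.6% and 10.6% with Hrp48 TRIBE, and at 33.3% with FMRP HyperTRIBE. CG7130 (3L, 22068779) was at 71.7% and 76.6%, and at 25% with FMRP HyperTRIBE. Of these 7 sites, 4 were in a list of another construct, and each level there was 44.4% or less.

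**Figure D2:**
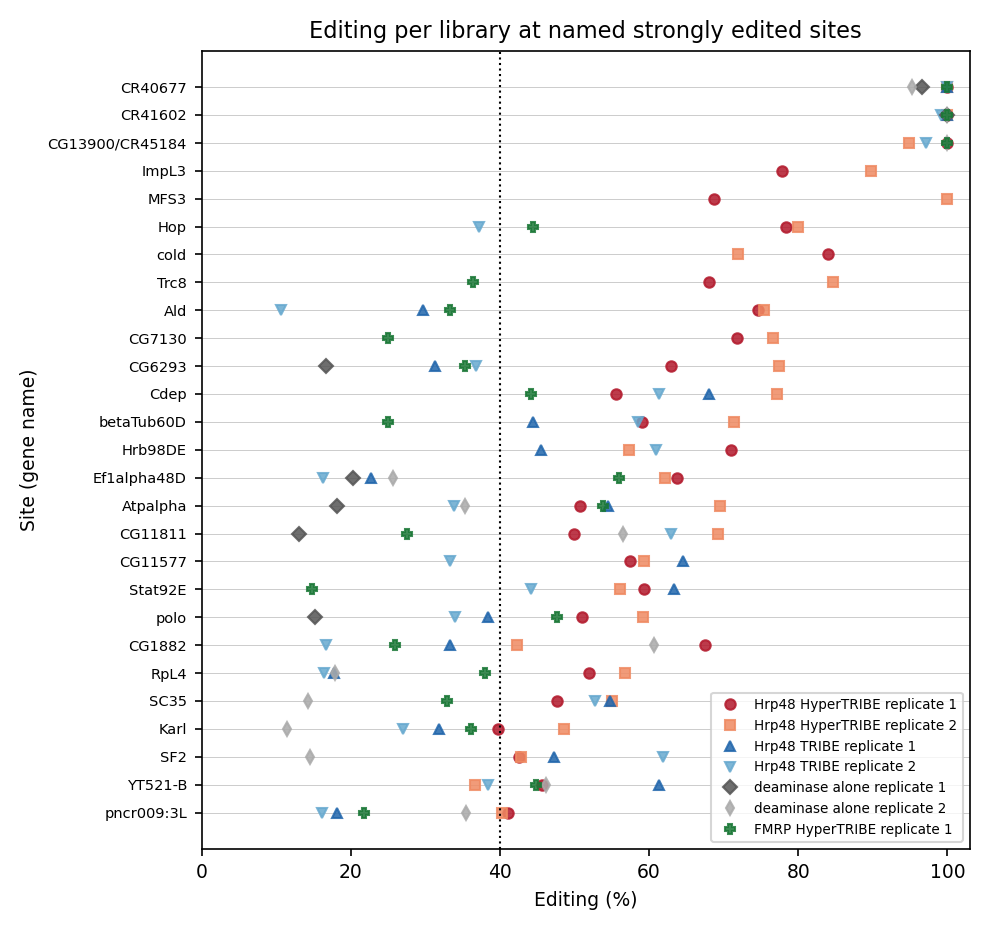
Editing (%) on the x axis in each of the 7 libraries at 27 named strongly edited sites (y axis), with 1 symbol for each library that listed the site and a dotted line at 40%. CR40677, CR41602 and the CG13900/CR45184 site sit near 100% in every library that listed them, while at Ald and Hop the Hrp48 HyperTRIBE points stand alone on the right, and at SF2 the Hrp48 TRIBE points (47.2% and 61.9%) lie to the right of the Hrp48 HyperTRIBE points (42.6% and 42.9%).

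The other 5 libraries, which the rule did not use, listed the members more often than the other sites. Hrp48 TRIBE replicate 1 listed 168 members, or 20.5% (Wilson 95% interval 17.9 to 23.4%), and 5.86% of the other sites. Hrp48 TRIBE replicate 2 listed 299 members, or 36.5% (33.3 to 39.9%), and 6.36% of the others. FMRP HyperTRIBE listed 364, or 44.4% (41.1 to 47.9%), and 18.4% of the others. The deaminase alone listed few of either kind. Its replicate 1 held 7 members (0.855%) and 0.0299% of the others, and its replicate 2 held 42 (5.13%) and 0.997%. The difference in shares was positive in 5 of 5 libraries with a mean of 15.2 percentage points (SD 12.9, n = 5; two-sided exact sign-flip permutation test over libraries, p = 0.063, the smallest that 5 libraries allow).

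Where a site was listed, it was also edited more if it was a member. Median editing was 27.4% at members and 15.4% at other sites in Hrp48 TRIBE replicate 1, and 20% and 14.3% in replicate 2. With FMRP HyperTRIBE the medians were 24.5% and 16.5%. With the deaminase alone they were 18.2% and 14.3% in replicate 1, on 7 and 3 sites, and 18.1% and 15.4% in replicate 2. The difference was positive in 5 of 5 libraries with a mean of 6.45 points (SD 3.70, n = 5; two-sided exact sign-flip permutation test, p = 0.063, the smallest possible). It was 4.32 points over the 4 libraries with enough sites when 50 or more reads were required in the library read (exact p = 0.25), and 11.8 points when means replaced medians. Against other sites of 30% to 40% pooled editing only, it was 4.61 points and was not positive in every library (exact p = 0.125).

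**Figure D3:**
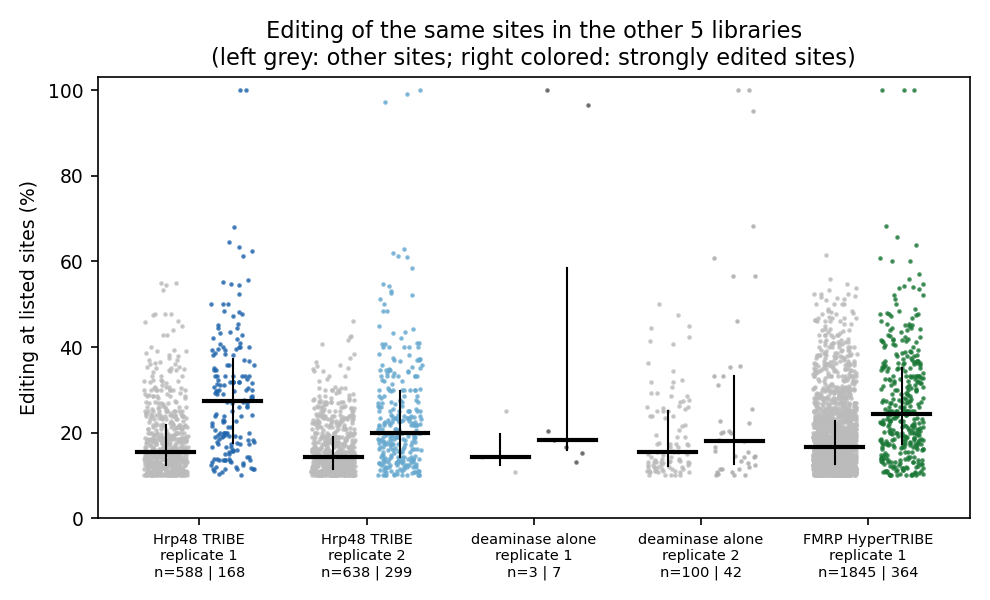
Editing (%) on the y axis at the sites that each of the other 5 libraries listed, with other sites in grey on the left and strongly edited sites in color on the right of each pair. Horizontal bars are medians, vertical bars span the quartiles, and n gives the number of other and strongly edited sites: the right-hand median is the higher one in each library, for example 27.4% against 15.4% in Hrp48 TRIBE replicate 1.

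Listing rose with the editing level in some libraries and hardly in others. In Hrp48 TRIBE replicate 2 the share listed was 26.8% at members of 40% to 45% pooled editing, 42.3% at 50% to 60% and 60% at 70% or more. In Hrp48 TRIBE replicate 1 these shares were 21.9%, 17.7% and 35%, and in FMRP HyperTRIBE 40.7%, 45.9% and 70%. The highest class holds 20 sites, among them the 3 that stood near 100% in all libraries that listed them. Median editing at the listed members followed the class in both TRIBE libraries, from 19.7% through 31.8% to 43.3% in replicate 1 and from 16.2% through 22.5% to 35.8% in replicate 2. With FMRP HyperTRIBE the medians in these classes were 22.2%, 25.7% and 35.5%.

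**Figure D4:**
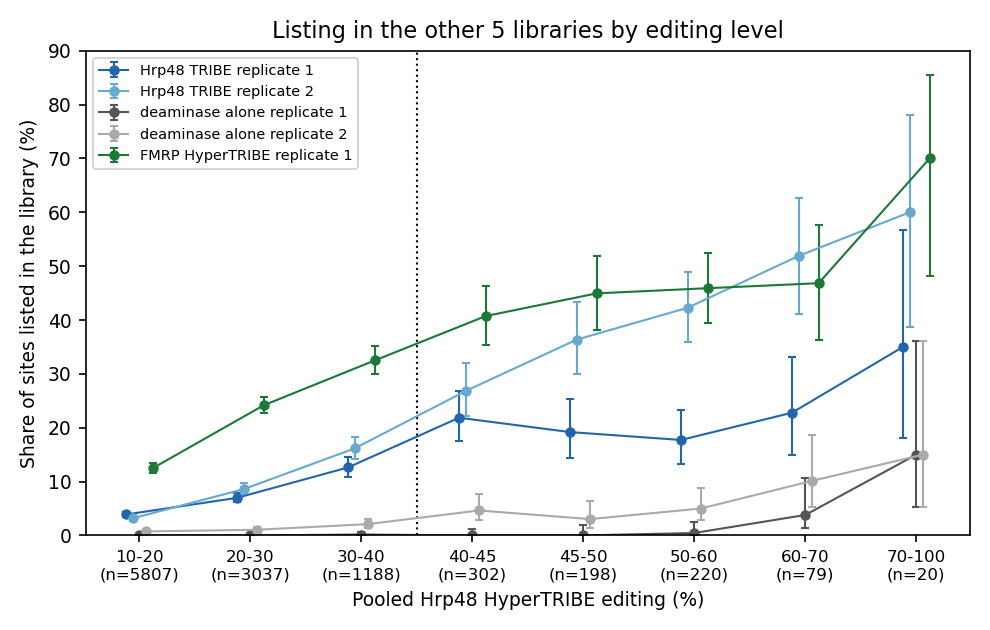
Share of sites listed in each of the other 5 libraries (y axis, %) by class of pooled Hrp48 HyperTRIBE editing (x axis, %, with the number of sites), with Wilson 95% intervals as bars and a dotted line at the threshold of 40%. The shares climb across the threshold, in Hrp48 TRIBE replicate 2 from 3.19% in the lowest class to 60% in the highest. The deaminase-alone shares stay at 15% or less, and in replicate 2 they climb too, from 0.74% to 15%, on 3 sites in the highest class.

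Coverage moved with listing. Among members with 40 to 59 pooled reads, Hrp48 TRIBE replicate 1 listed 0.549%, and among those with 120 or more it listed 63.3%. In Hrp48 TRIBE replicate 2 the shares were 16.5% and 47.9%, and in FMRP HyperTRIBE 20.3% and 58.0%. Within each of these classes the members still exceeded the other sites, whose shares in the class of 120 or more reads were 16.9%, 6.85% and 22.6% in the 3 libraries. In the class of 40 to 59 reads, Hrp48 TRIBE replicate 1 listed only 1 member and 2 other sites, with overlapping Wilson intervals. The 306 members (37.4%) that none of the other 5 libraries listed had median coverage of 28 and 36 reads with Hrp48 HyperTRIBE, against 39 and 52 reads for the 513 listed elsewhere. Their pooled editing was nearly the same, with medians of 47.0% and 47.5%, and 180 of the 306 lay in a gene with a site in another library. Of the other sites, 73.5% were in no other library.

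Hrp48 TRIBE carries the same RNA-binding protein. Either of its libraries listed 348 members (42.5%) and 10.4% of the other sites, and both listed 119 members (14.5%) and 1.78% of the other sites. At these 119 members median editing was 31.8% on 30 reads and 19.2% on 51 reads in the TRIBE libraries, and 50% and 48.1% with HyperTRIBE. The rule used the HyperTRIBE values, so what follows describes these sites and tests nothing. HyperTRIBE exceeded TRIBE by a median of 23.5 points, with a range from -11.8 to 54.9. Both HyperTRIBE values lay above both TRIBE values at 100 of the 119, beside 60.7% of all sites listed in the 4 libraries, and below both at 1, beside 4.7%. Within set 02 the median difference was 19.05 points, and within set 03 it was 27.4.

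The 5 widest gaps included 2 genes of glycolysis and 1 of translation. Ald had the widest, at the site given above, with a mean of 20.1% ± 13.4 (SD, n = 2) in TRIBE and 75.01% ± 0.57 (SD, n = 2) in HyperTRIBE. In Kr-h2 (2L, 6073618) the TRIBE levels were 24.2% and 11.9% and the HyperTRIBE levels 64.2% and 62.5%. The scf site (3L, 1299832) was at 31.2% and 20.9% against 71.3% and 69.1%. Ef1alpha48D, encoding elongation factor 1 alpha (2R, 7782933), stood at 22.8% and 16.2% against 63.7% and 62.1%, on 101 or more reads in each. Pgi, encoding phosphoglucose isomerase (2R, 4798624), was at 43.3% and 16.7% against 73.1% and 70.2%. At each of these sites the constructs did not overlap, and TRIBE replicate 1 was the higher of its pair, as it was at 99 of the 119.

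At a few members the TRIBE fusion edited as strongly as HyperTRIBE or more. The mean TRIBE level was 40% or more at 18 of the 119 members, and at 2 of the 179 other sites that both TRIBE libraries listed. It exceeded the mean HyperTRIBE level at 4 members. SF2, encoding a splicing factor of the SR family (3R, 12166050), was at 47.2% and 61.9% in TRIBE and at 42.6% and 42.9% in HyperTRIBE, and was the 1 member where the TRIBE pair lay above the HyperTRIBE pair without overlap. YT521-B, a nuclear reader of N6-methyladenosine (3L, 3371858), was at 61.3% and 38.5% against 45.6% and 36.7%. SC35, another SR protein gene (2L, 12432188), was at 54.8% and 52.7% against 47.6% and 55%. The site shared by CG1146 and CG45186 (3L, 2492265) was at 55.2% and 34.1% against 44.9% and 42.5%. At the last 3 the pairs overlapped.

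Other members with high TRIBE levels were in genes of signalling, the cytoskeleton and RNA binding. Cdep (3R, 770874) was at 68% and 61.4% in TRIBE and at 55.6% and 77.2% in HyperTRIBE. Stat92E, the transcription factor of JAK-STAT signalling (3R, 16361574), was at 63.3% and 44.1%, beside 59.4% and 56.1%, yet at 14.8% on 61 reads with FMRP HyperTRIBE. Hrb98DE, an hnRNP protein gene (3R, 24430599), was at 45.5% and 61.0% beside 71.0% and 57.4%. The pairs overlapped in these 3 genes. In betaTub60D, a beta tubulin gene (2R, 20200528), TRIBE gave 44.4% and 58.5% and HyperTRIBE 59.1% and 71.4%. CG11577 (3L, 19088430) was at 64.5% and 33.3% beside 57.5% and 59.4%. Across the 119 sites pooled HyperTRIBE editing and mean TRIBE editing had r of 0.63 and rho of 0.44, and 0.39 and 0.41 over the 117 sites without CR40677 and CR41602. The sites share their libraries, and no p is given.

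FMRP HyperTRIBE, with another RNA-binding protein on the same E488Q domain, listed 364 members in its single library. It lay below both Hrp48 HyperTRIBE libraries at 330 of these, beside 60.5% of all sites listed in the 3 libraries, above both at 13, beside 19.8%, and between them at 21. Since the members were chosen for high Hrp48 HyperTRIBE values, this count is a description. FMRP editing ranged from 10% to 100% at the members, was 40% or more at 59 of them and under 15% at 67. Across the 364 members it was only loosely related to pooled Hrp48 HyperTRIBE editing, with r of 0.35 and rho of 0.17, and 0.16 and 0.14 without the 3 sites above 90%. FMRP listed 58.0% (52.8 to 63.1%) of the members that a TRIBE library listed and 34.4% (30.2 to 38.8%) of the members that none did. For the other sites these shares were 25.5% and 17.6%.

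Besides the 3 sites near 100%, FMRP editing was highest at the site shared by CG33057 and mkg-p (3L, 8396771), with 68.2% on 22 reads beside 54.5% and 48.5% with Hrp48 HyperTRIBE. CG3356 held a pair of such sites (2R, 20088702 and 20088719), with FMRP levels of 65.7% and 63.9%. At the first the Hrp48 HyperTRIBE levels were 52.2% and 35.1%, and at the second 47.8% and 52.8%. CaMKII, encoding a calcium-dependent protein kinase (4, 1068708), was at 60.7% with FMRP and at 56% and 62.8% with Hrp48 HyperTRIBE. Nat1, a subunit of an N-terminal acetyltransferase (X, 19378338), was at 60% beside 50% and 53.2%, and FucT6, a fucosyltransferase gene (X, 11600780), at 60% beside 33.3% and 48.6%. CG5604 (2L, 10287402) was at 57.1% on 21 reads beside 54.1% and 47.2%. Of these 7 sites only that of CaMKII was also in a TRIBE list, at 21.7% in replicate 2.

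At the low end, members stood at the listing minimum of 10% with FMRP. The second Ald site (3R, 22080843) was at 52.6% and 53.8% with Hrp48 HyperTRIBE and at 10% on 60 reads with FMRP. In Unc-76, which encodes an adaptor of kinesin transport (X, 1987108), the levels were 66.7% and 50% against 10%. Treh, encoding trehalase (2R, 16975528), was at 46.9% and 41.7%, at 34.6% in TRIBE replicate 2, and at 10% on 20 reads with FMRP. Abp1 (3L, 13477021) was at 72.7% and 28.9%, and at 10% on 20 reads with FMRP. A site at 3L, 1339079 was at 48.3% and 32.8%, and at 10% on 40 reads with FMRP. At each of these 5 sites FMRP lay below both Hrp48 HyperTRIBE values, which the choice fixed. The sites were picked for the lowest FMRP levels, and no member was under 23.8% in either Hrp48 HyperTRIBE library. At the 78 members that both TRIBE libraries and FMRP listed, FMRP lay above both TRIBE values at 19 (24.4%), beside 28.7% of all such sites, and below both at 26 (33.3%), beside 27.9%. These shares are close to those of all sites, with medians at the 78 members of 24.3% for FMRP and of 31.8% and 19.6% for the TRIBE libraries.

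The deaminase alone served as the background with no RNA-binding protein. Either of its libraries listed 44 members (5.37%) and 1.01% of the other sites, and both listed 5 members. The share of members listed was 28.5% ± 11.3 (SD, n = 2) with Hrp48 TRIBE and 2.99% ± 3.02 (SD, n = 2) with the deaminase alone, a difference of 25.5 percentage points that exceeded the spread within each pair (two-sided exact permutation test, p = 0.33, the smallest that 2 against 2 allow). Mean shares of the other sites were 6.11% with Hrp48 TRIBE and 0.513% with the deaminase alone. The deaminase alone thus listed fewer sites of either kind, and the gap is not particular to the members. Deaminase-alone replicate 1 listed 13 sites in all, and 7 of them (53.8%) were members. In replicate 2 members made up 9.15% of the 459 sites, beside 13.4% and 21.4% in the TRIBE libraries and 7.75% with FMRP.

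Apart from CR40677 and CR41602, the members in both deaminase-alone libraries lay in Ef1alpha48D, Atpalpha and CG11811. Ef1alpha48D was at 20.4% and 25.6%, on 108 and 117 reads, close to its TRIBE levels and below its 55.9% with FMRP. Atpalpha, the sodium pump alpha subunit (3R, 16790761), was at 18.2% and 35.3%, beside 54.5% and 33.9% in TRIBE, 50.8% and 69.6% in HyperTRIBE and 53.8% with FMRP. CG11811 (3L, 10685078) was at 13.04% and 56.5% on 23 reads in each. Replicate 1 also held sites in CG6293 at 16.7% and in polo, a mitotic kinase gene, at 15.2%. These levels were below those of Hrp48 HyperTRIBE except in CG11811, where replicate 2 lay between 50% and 69.2%.

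Replicate 2 of the deaminase alone held further members at levels near those of Hrp48 HyperTRIBE. CG10512 (3L, 21200997) was at 68.2% on 22 reads beside 54.2% and 43.6%. CG1882 (2R, 3701368) was at 60.7% beside 67.5% and 42.3%, and crol, a zinc finger gene (2L, 11796346), at 56.5% beside 50% and 39.6%. YT521-B was at 46.2% on 26 reads, above both of its Hrp48 HyperTRIBE levels, and the noncoding gene pncr009:3L (3L, 19481385) was at 35.5% beside 41.0% and 40.3%. None of these 5 genes had its site in deaminase-alone replicate 1. Replicate 1 listed so few sites that its lists cannot show whether they were unedited there.

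The members spread over 612 gene names, 19.01% of the 3220 with a site in both Hrp48 HyperTRIBE libraries. Of these genes 457 held 1 member, 99 held 2, 38 held 3, 10 held 4 and 8 held 5. Genes with a member had a median of 5.5 sites in both libraries and genes without one 2, and a gene with more sites has more chances to hold a member. In 46 genes the only such site was a member. The members lay in exons at 816 of 819 positions (99.6%, and 99.5% of the other sites), and 49.6% were on the plus strand (other sites 48.1%). Their shares per chromosome were near those of the other sites, for example 16.6% and 19.4% on 2L and 14.8% and 12.97% on X. Besides the site of CG13900 and CR45184, the intronic members were in rhea, encoding talin (3L, 8540470; 72.2% and 43.6%), and in CR45194 (X, 21877286; 50% and 34.8%).

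Members had close neighbours more often than the other sites. A further site of the same gene, listed in both libraries, lay within 100 bases of 545 members, or 66.5% (Wilson 95% interval 63.2 to 69.7%), and of 44.8% (43.8 to 45.8%) of the other sites. The share was 50.4% against 31.6% within 50 bases and 78.9% against 58.2% within 200. Sites of a gene are not independent, so these intervals may be too narrow. The nearest neighbour was usually not a strong site itself. It was a member at 18.5% (15.5 to 22.01%) of these 545 and at 9.99% of the corresponding other sites, and its median pooled editing was 21.6% beside 20%. The median distance to it was 23 bases for members and 28 for the others.

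In the genes that held most members, their spacing varied. Among the 8 genes with 5 members, the members spanned between 443 bases, in CG7130, and 4106 bases, in CG11897. CG7130 had 5 members among 13 sites within 3L 22068306 to 22068841, with a median over its sites of 29.6%. The members were at 67.5%, 60.5%, 43.1%, 51.7% and 74.5% pooled, in order of position. Unc-76 had 5 among 21 (X, 1985303 to 1987461), and TRIBE replicate 2 listed all 5, between 11.1% and 33.3%. Sam-S, encoding S-adenosylmethionine synthetase, had 5 among 25, all within 447 bases. Its strongest (2L, 113727) was at 75.3% and 69.7% with HyperTRIBE, 45.2% and 34.7% with TRIBE and 35.7% with FMRP. Of its 5 members, 4 were in both TRIBE libraries and in FMRP, and the fifth (2L, 113826; 44.2% and 47.2%) was in none of the other libraries.

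PGAP3, which encodes an enzyme of GPI anchor remodelling, had 5 among 19, and CG11247 had 4 among 7. No other library listed a site in either gene. CG31678 (5 of 23), unc-5, a netrin receptor gene (5 of 23), pico, an actin regulator of the lamellipodin family (5 of 28), and CG11897 (5 of 31) followed. Sep1, a septin gene, had 4 of 9 within 279 bases, with levels between 37.0% and 55.6% in the Hrp48 HyperTRIBE libraries. In parvin, a gene of integrin adhesion, all 3 sites were members (X, 19642099 to 19642271), at 61.3% and 47.3%, 46.3% and 45.1%, and 46.2% and 41.7%. These were named after their values were seen, and TRIBE gave 33.3% and 29.6% at the middle position.

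Gene lists were described by the share of their sites that were members, beside 7.55% of all 10851 sites. The rule used this editing, so nothing is tested here. Sites of a gene are not independent, so the intervals of these shares may be too narrow. In all 138 members were in a list and 681 in none. Where a library's count in a list stands beside its share of all members, neither was matched for reads, with which listing moved. Glycolysis held 8 members among 71 sites (11.3%, Wilson 95% interval 5.82 to 20.7%), in 6 of its 12 genes with sites. In pathway order these were Pgi as given above, Pfk, encoding phosphofructokinase (60% and 58.6%), 3 sites of Ald, Tpi, encoding triose phosphate isomerase (45.3% and 45.5%), Eno, encoding enolase (69.6% and 58.3%), and ImpL3. Both replicates exceeded 40% at each of the 8. FMRP listed 4 of them, at 33.3%, 18%, 10% and 27.7%, beside 44.4% of all members.

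Ion pumps, channels and transporters held 18 members among 128 sites (14.1%, 9.08 to 21.1%), in 11 of 20 genes. Of these, 9 were in subunits of the vacuolar proton pump, which acidifies endosomes and lysosomes. VhaM8.9 (3R, 5088002) was the highest, with 58.8% and 64.6% in HyperTRIBE and 28.3% and 21.7% in TRIBE. VhaAC45, Vha26, Vha55, VhaAC39-1, VhaPPA1-1 and Vha16-1 held the others, with pooled levels between 40.5% and 50%. CG11897 supplied 5 more of the 18, with pooled levels between 43.8% and 61.5%. Besides Atpalpha, the list included the calcium pump gene Ca-P60A with sites at 51.6% and 50.8% and at 39.0% and 45.2%, and path, an amino acid transporter gene, at 51.6% and 53.1%.

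A list of insulin, Ras and TOR signalling genes, added after the members had been seen, held 18 members among 90 sites (20%), in 11 of 19 genes. At the receptor end, the adaptor gene drk held 3, with HyperTRIBE levels of 56.5% and 56.5% at the highest (2R, 9383263). The regulatory and catalytic subunits of phosphoinositide 3-kinase, Pi3K21B and Pi3K92E, held 2 each, and Pdk1, the kinase downstream of it (3L, 144494), was at 71.1% and 61.2%, and at 54.8% in TRIBE replicate 2. Rheb, a GTPase that activates TOR, held 2, at 44.6% and 49.1% and at 44.1% and 37.8%. Thor, the 4E-BP repressor of translation downstream of TOR, was at 46.8% and 39.6%. In the Ras branch were Ras85D (41.0% and 44.6%), its feedback inhibitor sty (46.7% and 45.3%), the phosphatase Mkp3 (46.2% and 43.2%) and 3 sites of the repressor cic, which differed widely between replicates (37.0% and 67.9% at the highest). The list was shaped by these genes, so its share is no evidence of its own.

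**Figure D5:**
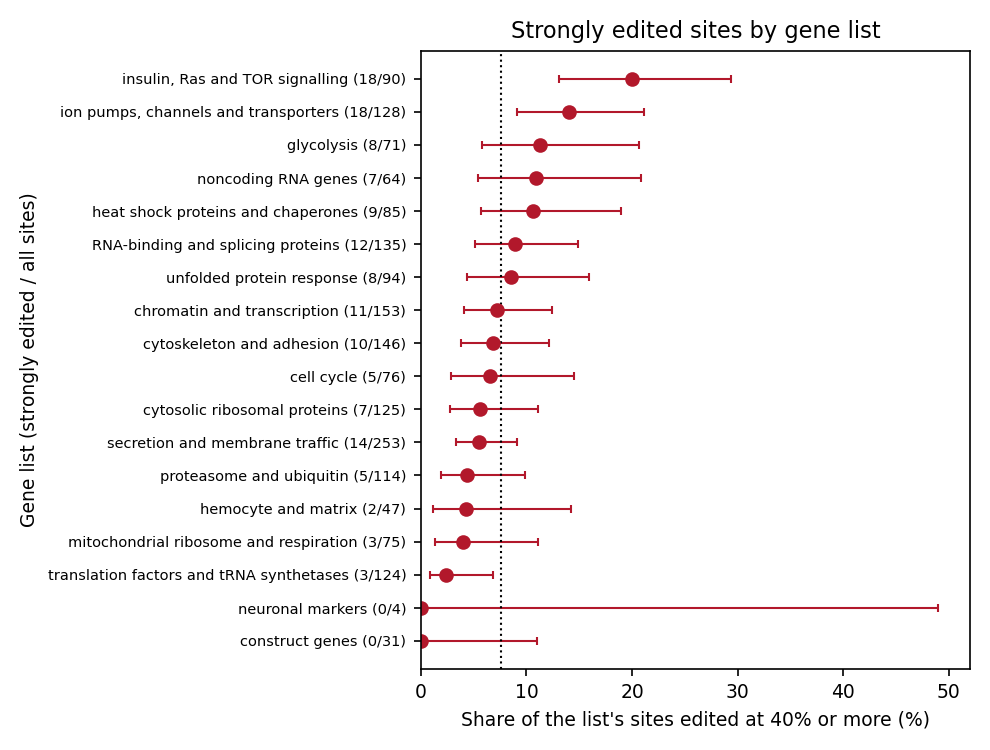
Share of each list's sites that were strongly edited (x axis, %) for 18 gene lists (y axis, with strongly edited and all sites), with Wilson 95% intervals as bars and the share over all sites, 7.55%, as a dotted line. Insulin, Ras and TOR signalling (20%) and ion pumps (14.1%) are the highest and translation factors (2.42%) the lowest of the lists with a strongly edited site, and the lists of insulin, Ras and TOR signalling and of the unfolded protein response were added after the sites had been seen.

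RNA-binding and splicing protein genes held 12 members among 135 sites (8.89%). Hrp48 TRIBE replicate 2 listed 11 of them, beside 36.5% of all members, replicate 1 listed 7, beside 20.5%, and FMRP listed 7, beside 44.4%. Besides SF2, SC35 and Hrb98DE they included Hrb87F, another hnRNP gene, at 59.8% and 51.4% beside 29.6% and 31.2% in TRIBE, and Rox8 (3R, 19869415) at 48% and 45.7% beside 40.9% in TRIBE replicate 2 and 41.4% with FMRP. The genes of the constructs held none. Hrb27C, which encodes Hrp48, had 13 sites with a highest level of 31.2%, Fmr1 8 with 26.3%, and Adar 10 with 21.1%, and where a construct carries the gene its reads and the endogenous ones cannot be told apart.

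Cytosolic ribosomal protein genes had 7 members among 125 sites (5.6%, 2.74 to 11.1%), beside 7.55% of all sites. FMRP listed all 7, beside 44.4% of all members. Hrp48 TRIBE replicate 1 listed 5 of the 7, beside 20.5% of all members, and replicate 2 listed 3, beside 36.5%. These shares were not matched for reads. Among all members with 120 or more pooled reads, Hrp48 TRIBE replicates 1 and 2 listed 63.3% and 47.9%, and FMRP listed 58.0%. RpL4 had 181 pooled reads. RpL4 (3R, 23750548) was the highest, at 51.9% and 56.7%, with 17.7% and 16.5% in TRIBE, 17.9% in deaminase-alone replicate 2 and 38.04% with FMRP. At RpS24, RpS18, RpL27 and RpS16 FMRP gave between 23.8% and 33.1%, above every TRIBE level of these sites, and at RpS29 12.2%. Translation factors and tRNA synthetases had 3 among 124 (2.42%, 0.826 to 6.87%), in Ef1alpha48D, eIF-1A (50% and 51.1%) and eIF3-S10 (42.9% and 44.9%).

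Heat shock proteins and chaperones held 9 among 85 (10.6%). After Hop and Hsp23 came a site that Hsp22, encoding a small heat shock protein of mitochondria, shares with Hsp67Bb, at 62.1% and 50.4%, and Hsp60, a mitochondrial chaperonin gene, at 53.5% and 43.6%. The list of the unfolded protein response, also added after the members were seen, held 8 among 94 (8.51%). They included the stress sensors PEK (48.8% and 55.6%) and Ire1 (37.3% and 42.4%), and Gadd34, a regulator of the phosphatase of eIF2 alpha, with sites at 66.0% and 50% and at 51.1% and 44.8%. Secretion and membrane traffic held 14 among 253 (5.53%). The highest were RabX1, a Rab GTPase gene, at 69.6% and 75%, and SCAP, the escort of SREBP, at 62.5% and 72.2%.

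Cell cycle genes held 5 among 76 (6.58%), with CycA, encoding cyclin A, at 58.1% and 59.0%, polo at 51.0% and 59.2% and Bub3, of the spindle checkpoint, at 53.8% and 42.9%. Chromatin and transcription held 11 among 153 (7.19%), led by TfIIFbeta (75% and 50%) and CtBP, a co-repressor gene (3 sites, 50% and 54.7% at the highest). FMRP listed 2 of these 11, beside 44.4% of all members. The count was low with Hrp48 TRIBE too, with 0 in replicate 1, beside 20.5% of all members, and 2 in replicate 2, beside 36.5%. These shares were not matched for reads. Hrp48 TRIBE replicate 1 listed 0.549% of all members with 40 to 59 pooled reads and 3.24% of those with 60 to 79. Whether coverage accounts for the low counts was not tested. Cytoskeleton and adhesion held 10 among 146 (6.85%), of which pico accounted for 5. The proteasome and ubiquitin list held 5 among 114 (4.39%), with ben, a ubiquitin-conjugating enzyme gene, at 57.7% and 45.2%. Mitochondrial ribosome and respiration held 3 among 75 (4%), with mRpS22 at 62.7% and 57.1%. The hemocyte and matrix list held 2 among 47 (4.26%), in crq, encoding a scavenger receptor (48.1% and 60.9%), and in the ferritin gene Fer2LCH (42.9% and 53.6%), and the neuronal list 0 of 4.

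Noncoding RNA genes held 7 members among 64 sites (10.9%, 5.40 to 20.9%). Besides CR40677, CR41602, CR45184, CR45194 and pncr009:3L these were CR43264 (X, 5726078; 57.7% and 68.8%) and a site (2L, 13218312; 66.7% and 52.8%) that the files give to snRNA:U2:34ABb, snRNA:U2:34ABc and CG9426. CG9426 is a protein-coding gene, and U2 small nuclear RNA is encoded by near-identical copies, so the gene of this site is uncertain. CR45194 matched no current symbol and was annotated as protein-coding, so its place in this list is uncertain too. Of the 7, the 3 near 100% and pncr009:3L were in a deaminase-alone list.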

How the data were processed

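Per the file headers and the labels, each deposited file lists edited sites of 1 library with dm3 positions, gene names, whole-number read counts per base, and the percent of reads edited, all made by the authors. The deposited score columns were not used. Per the submitters' processing notes, TopHat2 (2.1.1) and Picard (2.8.2) were among the tools and dm3 was the build. Base counts did not sum to the total on 1 of 52199 lines.

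Of 32 samples, 7 were analysed, and the others were not analysed here. A site was a chromosome and position, with lines for several genes joined. Pooled editing was edited reads over total reads, summed over both Hrp48 HyperTRIBE libraries. Shares carry Wilson 95% intervals, which cover counting error only, since reads are not independent molecules. Comparisons between members and other sites used exact permutation tests over libraries (sign flips for 5 libraries, reassignment for 2 against 2), checked on simulated data. The choice of members by the Hrp48 HyperTRIBE levels left no test on those levels. Alternatives were the threshold, the pooling, a minimum of 50 reads, a library left out, the replicate block, and, added after seeing the data, leaving out sites of 90% or more and comparing with sites of 30% to 40%.

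Named sites were the 10 highest members, those highest and lowest in each other construct or between replicates, those at the threshold, the intronic ones, the genes with most members, and per list the highest, with further list members given to describe the lists. Members, lists and this rule were chosen with earlier results of these data known. Of 612 gene names, 517 matched a current symbol, 86 an older one, and 9 neither. Bases around the sites were not analysed here. Tables were handled with pandas 2.3.3 under Python 3.11.15, tests were run with numpy 2.4.6 and scipy 1.17.1, and plots were drawn with matplotlib 3.10.9.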

Additional observations from a re-analysis of the deposited data

How the results depend on the processing

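The number of members depended on the rule, with 1270 at a threshold of 35%, 319 at 50%, 201 with 50 or more reads in each library, and 1059 to 1303 when 1 Hrp48 HyperTRIBE library alone chose the sites. The share of members with a neighbour was 50.4% within 50 bases, 78.9% within 200, 74.6% with 50 or more reads and 70.8% at a threshold of 50%. The other sites moved in the same way where the distance changed. For the read and threshold settings no share of the other sites is given, so those values describe the members alone. The difference in median editing ranged from 4.32 to 11.8 points and that in shares listed from 8.78 to 25.3 points over the alternatives run. All were positive as means over the libraries. A lower threshold of 35% gave 5.15 points (exact p = 0.125), and leaving out a library of the other 5 gave 5.06 to 7.40 points. The TRIBE minus deaminase-alone difference in shares ranged from 16.7 to 46.5 points. It was 25.5 points with the replicate block too (exact sign-flip permutation test, p = 0.5), though the labels do not say that replicate numbers pair libraries. With 1 TRIBE library left out it was 17.5 and 33.5 points, and with 1 deaminase-alone library left out 23.4 and 27.7 points. None of these exact tests could pass a threshold of 0.05 in this design, so their p-values say nothing about stability. Depth limits which members can be listed at all: at 20 reads a level near 10% rests on 2 edited reads.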
